A study of Mus musculus with 27 samples.

Results

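The 26 min ischemia group of a graded mouse kidney ischemia-reperfusion series was compared with its sham group, 3 kidneys against 3, so that 6 of the 27 kidneys of the series were members. Members were chosen by the labels alone: kidneys labelled uIRIx26min-24h and kidneys labelled Sham-24h. All 6 came from wild-type C57BL/6 mice whose right kidney had been removed. In the ischemia group the left renal pedicle was clamped for 26 min and then released; in the sham group the clamping time was 0 min. Left kidneys of both groups were taken 24 h later, and whole-kidney RNA was sequenced. Neither age nor the hour of harvest is given in the sources used here. The remaining kidneys of the series had 16 to 30 min of ischemia, 3 per time, and of these the 24 and 28 min kidneys serve below as neighbours. Nothing in the labels says more of the replicates than their numbers. P-values below from the fit over all 27 kidneys measure the spread between kidneys within groups, averaged over the 9 groups.

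Ischemia-reperfusion stops and then restores the blood supply of the kidney, and the proximal tubule, which burns fatty acids in mitochondria to drive reabsorption, is the segment most easily injured. Injured tubule cells are known to lose transporters and enzymes, to switch on surface and secreted proteins such as KIM-1 (Havcr1) and NGAL (Lcn2), and, where they survive, to re-enter the cell cycle. Removing the opposite kidney makes the clamped kidney the only source of renal function. Interferon-stimulated genes, which respond to type I interferons through ISRE elements and to interferon-gamma through GAS elements, encode antiviral proteins and the machinery that presents peptides on MHC molecules.

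Values were FPKM (fragment counts divided by transcript length and library size), summing to between 514113 and 541888 per kidney, with 16498 to 16710 genes above 0. Read totals are not part of these values, so the depth of each library, and with it the counting error of low genes, is unknown. Pairs of kidneys correlated across genes (log2 scale) at r = 0.9916 to 0.9963 within sham and at 0.9932 to 0.9953 within 26 min, against 0.9708 to 0.9795 between the groups. In bulk tissue, fewer cells of a type and less RNA per cell cannot be told apart. Several kidneys stood apart from their group. Sham kidney 1 had low levels of interferon-induced genes: the summed FPKM of 18 interferon-induced GTPases was 128 there, against 3285 and 2439 in sham kidneys 2 and 3. Its summed level of 7 erythroid genes was also the highest, at 663 against 216 and 139. Sham kidney 3 had the highest value of the sham group in 27 of 32 tubular injury markers. In the 26 min group, kidney 2 was highest in 32 of 32 mitosis genes and kidney 3 in 18 of 18 immediate early genes and in 24 of 32 injury markers. The part of these kidneys in the results was not tested beyond the values without them that are given below. All 4 Y-linked genes looked at were above 0 in the 6 kidneys, with summed levels of 44.9 to 49.2 FPKM.

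Which genes differed 24 h after 26 min of ischemia was tested with limma on log2(FPKM + 1), quantile normalised, in 1 fit over all 27 kidneys. A gene was called a differentially expressed gene (DEG) with an absolute log2 fold change (log2FC) above 1 and a Benjamini-Hochberg adjusted p under 0.05. Of 18188 genes tested, 686 were DEGs (3.77%), 393 of them higher at 26 min (2.16%) and 293 lower (1.61%). Among the genes that rose were 25 of 32 injury markers, 29 of 32 mitosis genes, 25 of 42 replication genes, 17 of 33 matrix genes and 10 of 28 chemokines, cytokines and their regulators. Among those that fell were 17 of 18 interferon-induced GTPases, 19 of 22 antigen presentation genes and 11 of 30 proximal tubule markers. In 5286 genes (29.1%) all 3 kidneys of the 26 min group lay above the 3 sham kidneys, and in 2333 (12.8%) all lay below; 7230 genes (39.8%) had an unadjusted p under 0.05. The split of DEGs depended on the scaling: FPKM rescaled to a constant sum (TPM) called 674 higher and 277 lower, so that 70.9% of calls were higher against 57.3% as reported, and without quantile normalisation 502 were higher and 248 lower (66.9% higher). These scalings moved the median log2FC over all genes by at most 0.07.

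**Figure D1:**
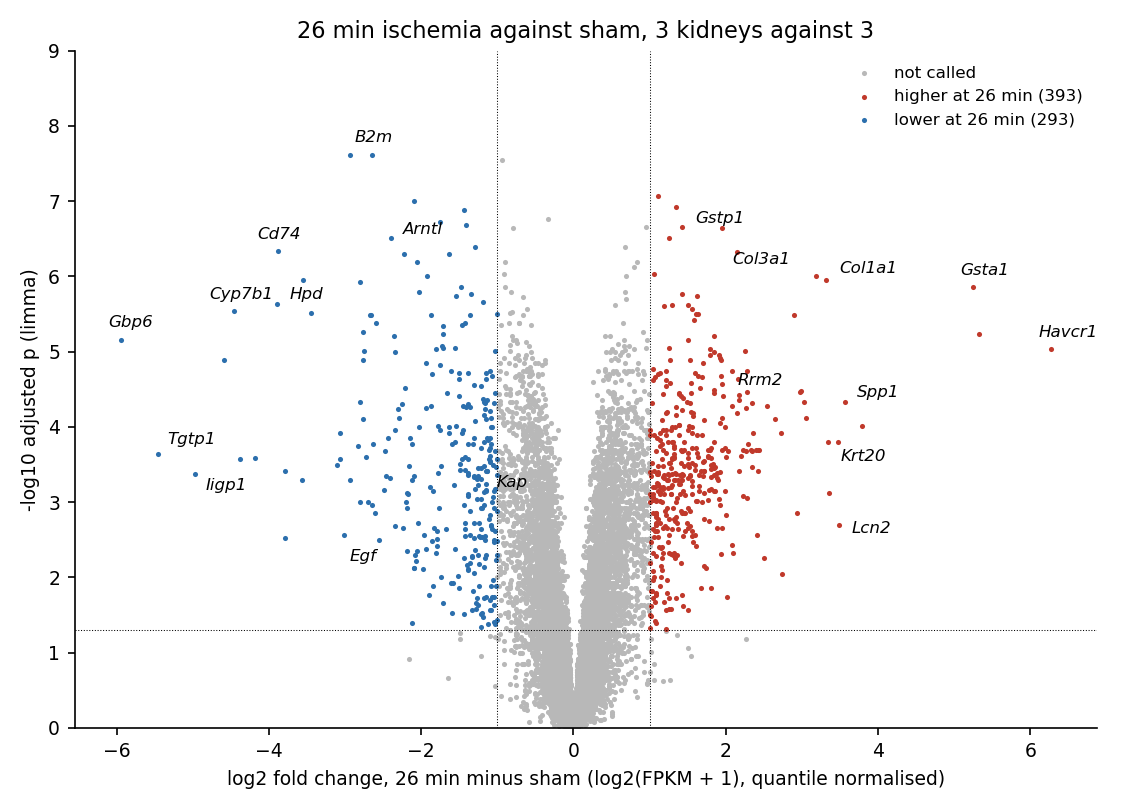
Log2 fold change at 26 min against sham (x axis, log2(FPKM + 1), quantile normalised) against -log10 of the limma adjusted p (y axis), 1 point per gene; dotted lines mark a log2 fold change of 1 in either direction and an adjusted p of 0.05. The 393 higher genes are led by Havcr1 (6.27) and the 293 lower genes by Gbp6 (-5.94).

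The tissue changed most, in FPKM, in 2 very abundant transcripts. Kap encodes an androgen-regulated proximal tubule protein and was the most abundant transcript of the sham kidney, at 49644, 47741 and 47048 FPKM, against 10677, 9022 and 15967 FPKM at 26 min. Every 26 min kidney was below every sham kidney. Its share of the summed FPKM fell from 8.95% ± 0.291 (SD, n = 3) to 2.26% ± 0.688 (SD, n = 3; exact permutation p = 0.1, two-sided, the smallest that 3 against 3 allows). The quantile normalised log2FC was -1.17 (SE 0.21, limma adjusted p = 0.00033), while without quantile normalisation it was -2.06 (SE 0.20, adjusted p = 1.2e-06); mean FPKM was 4.05 times higher in sham. Because the normalisation assigns values by rank, the normalised log2FC understates the fall, and it was -0.98 without 26 min kidney 1 and -0.97 without kidney 2, no longer past the fold threshold. Spp1, which encodes the secreted glycoprotein osteopontin, went the other way, from 776, 1132 and 1705 FPKM in sham to 10877, 9549 and 13653 FPKM (log2FC 3.56, SE 0.50, adjusted p = 4.6e-05). Without quantile normalisation the Spp1 log2FC was smaller, at 3.29 (SE 0.54, limma adjusted p = 0.00015), and mean FPKM was 9.43 times higher at 26 min. Its share of summed FPKM was 0.22% ± 0.0854 in sham and 2.16% ± 0.391 at 26 min (SD, n = 3 each; exact permutation p = 0.1). The other large falls in mean FPKM were in B2m, Napsa, Ndrg1 and Cd74, and the other large rises in Clu, Havcr1, S100a11 and the predicted gene Gm46894.

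Of 32 tubular injury and repair markers, 25 rose, 0 fell and 7 were not called (median log2FC 1.66, against 0.00 over all genes). Havcr1 encodes KIM-1, the phosphatidylserine receptor that appears on injured proximal tubule cells. Its FPKM was 2.81, 2.49 and 22.0 in sham kidneys 1 to 3 and 494, 466 and 711 at 26 min (log2FC 6.27, SE 0.74, limma adjusted p = 9.3e-06), so that even the high sham kidney 3 was far below the ischemia group. Lcn2 encodes NGAL, an iron-siderophore binding protein. It measured 11.5, 9.39 and 63.6 FPKM in sham and 245, 115 and 480 at 26 min (log2FC 3.49, SE 0.78, adjusted p = 0.002), with a wide spread in both groups and no overlap. Timp1, a metalloproteinase inhibitor, was at 0.6, 0.22 and 3.67 FPKM in sham and at 24.3, 23.3 and 23.9 at 26 min (log2FC 3.48, SE 0.57, adjusted p = 0.00016). Krt20, a keratin of injured tubule cells, was at 0.23, 0.32 and 1.11 FPKM in sham and 19.1, 11.4 and 16.5 at 26 min (log2FC 3.34, SE 0.55, adjusted p = 0.00016). Clu, the extracellular chaperone clusterin, was abundant in both groups, at 197, 162 and 220 FPKM in sham and 872, 946 and 1164 at 26 min (log2FC 2.44). Sham kidney 3 was the highest sham kidney for each of these 5 genes. S100a6, an S100 calcium-binding protein, rose as well (3.05). Smaller rises were seen for the epithelial keratins Krt8 (1.41) and Krt18 (1.55) and the mesenchymal filament gene Vim (1.84). The progenitor transcription factor Sox9 (1.32) and the hyaluronan receptor Cd44 (1.15) were also among these. Leaving out each of the 6 kidneys in turn gave 20 to 26 called injury markers. Hmox1, heme oxygenase, was called with all kidneys (log2FC 1.34) and missed the fold threshold without 26 min kidney 3 (0.95), where it was at 128 FPKM against 57.1 and 56.9 in kidneys 1 and 2.

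**Figure D2:**
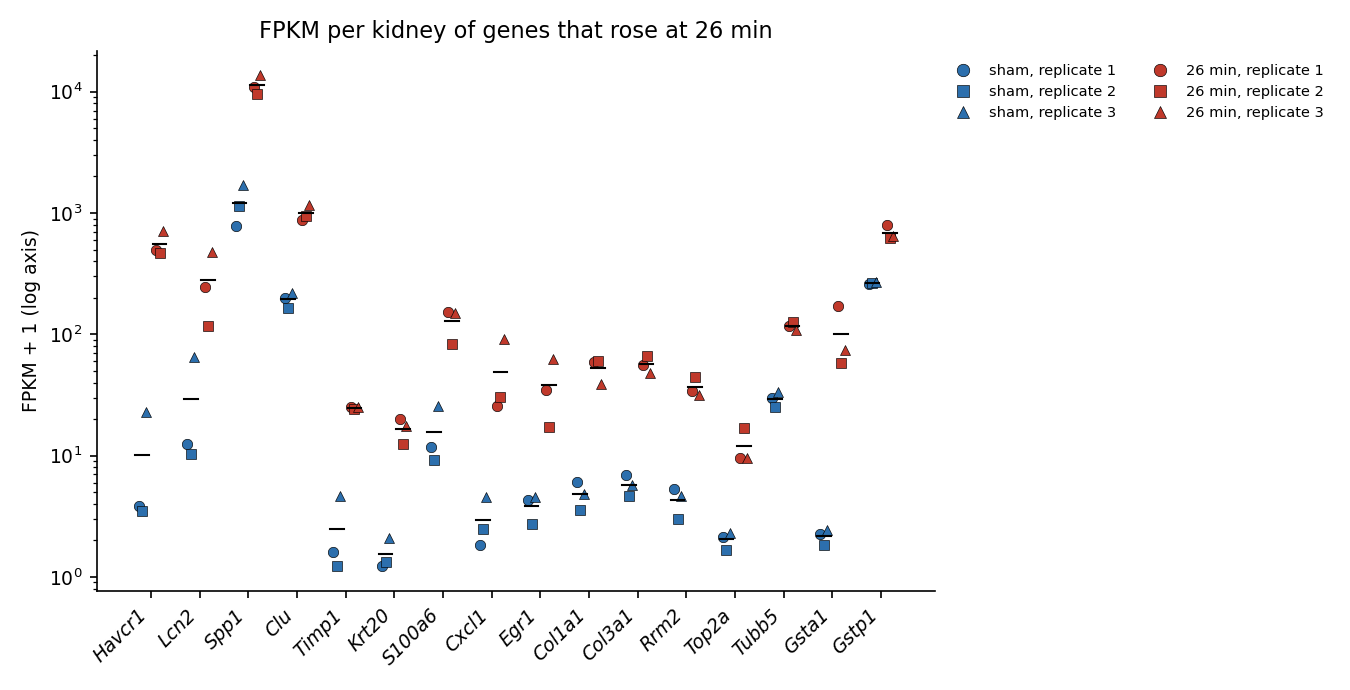
FPKM + 1 on a log axis for 16 genes that rose, 1 symbol per kidney (circle, square and triangle for replicates 1 to 3, sham in blue and 26 min in red), with a black bar at each group mean. No gene shown overlaps between the groups, which for many of them was a condition of being named. Sham kidney 3 (blue triangle) lies above the other sham kidneys for Havcr1 (22.0 FPKM) and Lcn2 (63.6 FPKM).

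Of 28 chemokines, cytokines and their regulators, 10 rose and 1 fell. Cxcl1, a neutrophil chemoattractant, was at 0.83, 1.48 and 3.6 FPKM in sham and 24.4, 29.2 and 89.7 at 26 min (log2FC 3.79, SE 0.58, limma adjusted p = 9.8e-05). Ccl20 (1.99), Ccl2 (1.49), Ccl7 (1.31) and Cxcl2 (1.23), chemoattractants for lymphocytes, monocytes and neutrophils, rose from under 2 FPKM in every sham kidney, and the STAT3 feedback inhibitor Socs3 rose too (1.67). Il34, a ligand of the macrophage growth factor receptor CSF1R, was at 7.76 to 8.92 FPKM in sham and 24.3 to 34.2 at 26 min (log2FC 1.52, SE 0.23, adjusted p = 9.8e-05), and all 3 ischemic kidneys lay above sham. Cxcl12, which retains CXCR4-bearing cells, fell (log2FC -1.08), a call lost without 26 min kidney 2 (-0.94). Il6 was at or under 0.72 FPKM in all 6 kidneys (log2FC 0.10, adjusted p = 0.79), and Ptgs2, the inducible cyclooxygenase, had a log2FC of -0.10 (adjusted p = 0.76). Socs3 and the NF-kB cofactor Bcl3 (1.44) each lost their call when any of 3 kidneys was left out, among them sham kidney 1 and 26 min kidney 3.

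Of 18 AP-1 and other immediate early genes, 9 rose and 0 fell (median log2FC 0.97). Egr1, a zinc finger factor induced by growth signals, was at 3.31, 1.71 and 3.54 FPKM in sham and 33.9, 16.4 and 61.5 at 26 min (log2FC 3.03, SE 0.43, limma adjusted p = 4.7e-05). Fos (1.74) and Junb (1.62), both AP-1 subunits, and Zfp36 (1.53), which speeds the decay of cytokine mRNAs, rose as well. Kidney 3 of the 26 min group was highest for all 18 genes, and without it 5 were called; Fos was then at 1.26 and no longer called.

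Of 33 matrix and fibroblast genes, 17 rose and 0 fell. The fibrillar collagen genes Col1a1 and Col3a1 rose most. Col1a1 was at 5.08, 2.57 and 3.79 FPKM in sham and 57.7, 58.9 and 37.8 at 26 min (log2FC 3.32, SE 0.32, limma adjusted p = 1.1e-06). Col3a1 was at 5.87, 3.69 and 4.77 FPKM in sham and 54.5, 65.4 and 46.9 at 26 min (log2FC 3.18, SE 0.31, adjusted p = 1e-06). For both, the lowest ischemic kidney was several times above the highest sham kidney. Col1a2 (2.16), fibronectin Fn1 (1.94), the matricellular genes Sparc (1.95) and Tnc (1.37), and the smooth muscle actin gene Acta2 (1.57) also rose.

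Markers of other cell types were rarely called. None of 10 podocyte, 12 endothelial, 11 neutrophil, 15 T and NK cell or 7 B and plasma cell markers was called in either direction. As 3.77% of all genes were called, lists this short can be without a call at the share of all genes. Their summed levels ranged from 65.7 to 96.4 FPKM in sham and 81.3 to 142 at 26 min for podocytes and from 189 to 220 against 178 to 218 for endothelium. Neutrophil markers summed to 5.59 to 12.2 FPKM in sham and 6.15 to 10.1 at 26 min, T and NK cell markers to 4.14 to 10.2 against 2.23 to 5.49, and B cell markers to 2.21 to 3.83 against 2.09 to 2.33. Of 14 macrophage and monocyte markers, the lysosomal genes Cd68 (log2FC 2.08) and Lyz2 (1.35) rose and Csf1r fell (18.3, 13.7 and 15.3 FPKM in sham, 7.16, 7.93 and 9.17 at 26 min, adjusted p = 0.00043) by a log2FC just past the threshold. The Csf1r log2FC was -0.88 without quantile normalisation and -0.89 with TPM, and it was under the fold threshold without sham kidney 1 or without 26 min kidney 1 or 2; Lyz2 lost its call without sham kidney 2 or 26 min kidney 3. Adgre1, which encodes the macrophage antigen F4/80, had a log2FC of -0.02, and the complement genes C1qa, C1qb and C1qc had -0.50, -0.39 and -0.48. The summed macrophage level was 88.5 to 102 FPKM in sham and 106 to 131 at 26 min. Adrenal and skeletal muscle markers each summed to under 3 FPKM in every kidney.

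Many DNA replication and mitosis genes rose. Of 42 replication genes, 25 rose and 0 fell (median log2FC 1.21), and in all 42 the 3 ischemic kidneys lay above sham, against 29.1% of all genes. Of 32 mitosis genes, 29 rose (median 1.68) and again all 32 did not overlap. Promoter sequence is shown for Mcm5 and Uhrf1, which carry letters bound by E2F factors, the activators of S-phase genes. Each is the 250 bases before a gene start in RefSeq on GRCm38.p6, read 5′ to 3′ on the gene's strand, with the matches in capitals. Mcm5 lies at chr8:75109259-75109508, plus strand, and its capitals hold 2 overlapping matches on opposite strands. Uhrf1 lies at chr17:56304063-56304312, plus strand, the window of its second start, with 1 match. The window of its first start held 0 matches, as did those of Rrm2 and Tk1, which are not shown.
Mcm5: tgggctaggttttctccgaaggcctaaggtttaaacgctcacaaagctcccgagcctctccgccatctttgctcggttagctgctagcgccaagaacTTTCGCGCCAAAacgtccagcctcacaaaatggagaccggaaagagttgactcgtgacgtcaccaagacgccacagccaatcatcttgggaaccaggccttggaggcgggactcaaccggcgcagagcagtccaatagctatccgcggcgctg
Uhrf1: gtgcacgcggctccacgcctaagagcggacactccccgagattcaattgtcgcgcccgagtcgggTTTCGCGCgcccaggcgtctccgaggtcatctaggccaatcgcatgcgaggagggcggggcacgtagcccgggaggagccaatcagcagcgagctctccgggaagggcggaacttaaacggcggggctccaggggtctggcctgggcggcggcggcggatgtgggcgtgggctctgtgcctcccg

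The letters searched on both strands were TTTGGCGC, TTTCGCGC, TTTCCCGC and TTTGCCGC. They stood before 8 of the 34 replication genes with a promoter entry (23.5%), before 1 of 26 mitosis genes (3.85%) and before 468 of all 14320 genes tested that have an entry (3.27%). Here and below, a gene was counted if a match stood before any of its starts. A match is a description of sequence, not a measured binding site.

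Among replication genes, Rrm2, the inducible subunit of ribonucleotide reductase, rose most. It was at 4.28, 2.03 and 3.66 FPKM in sham and 32.8, 43.2 and 30.6 at 26 min (log2FC 2.98, SE 0.41, limma adjusted p = 3.4e-05). Uhrf1, which carries DNA methylation through replication, was at 1.92, 1.28 and 3.07 FPKM in sham and 23.4, 20.3 and 18.9 at 26 min (log2FC 2.72, SE 0.43, adjusted p = 0.00012). Gins2, a subunit of the replicative helicase, was at 2.48, 2.05 and 4.33 FPKM in sham and 16.3, 16.6 and 13.8 at 26 min (log2FC 1.96, SE 0.27, adjusted p = 3.9e-05). The ischemic kidneys were close to each other for each of these genes. All 6 MCM helicase genes were called, from 1.11 for Mcm6, which was at 0.97 without sham kidney 2, to 1.90 for Mcm3, as were the thymidine kinase Tk1 (2.26), the cyclins Ccne1 (1.95) and Ccne2 (1.31), Lig1 (1.79) and Pold4 (1.13), while Pole2 (0.96), Cdk4 (0.66) and Trp53 (0.75) missed the fold threshold with adjusted p of 0.0007, 0.0024 and 0.0041. Among mitosis genes, the topoisomerase Top2a was at 1.14, 0.67 and 1.3 FPKM in sham and 8.49, 15.8 and 8.51 at 26 min (log2FC 2.36, SE 0.37, adjusted p = 0.00012). Kidney 2 again stood above kidneys 1 and 3 for the survivin gene Birc5, which was at 13.8, 26.7 and 13.3 FPKM against 0.79 to 3.19 in sham (log2FC 2.42). Of 20 p53 target genes 2 rose, Gtse1 (1.62) and Btg2 (1.04), and Fas fell (-1.03); Gtse1 is itself expressed in G2 and M phase, and the calls of Btg2 and Fas were lost without sham kidney 2, among other settings. On a list of 19 tubulin and chaperonin genes, 6 of the 11 tubulin genes rose and no other member was called; Tuba1c (0.90) and Tubb4b (0.73) were under the fold threshold. Tubb5 was at 28.8, 24.1 and 32.2 FPKM in sham and 116, 124 and 107 at 26 min (log2FC 1.93, SE 0.24, adjusted p = 1.2e-05).

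Of 26 glutathione and NRF2-linked genes, 6 rose and 0 fell (median log2FC 0.42). Gsta1, a glutathione transferase that detoxifies lipid peroxidation products, was at 1.25, 0.83 and 1.44 FPKM in sham and 170, 56.7 and 72.6 at 26 min (log2FC 5.24, SE 0.52, limma adjusted p = 1.4e-06). Its near-identical relatives share reads with it: Gsta2 rose from 144 to 224 FPKM in sham to 532 to 747 (log2FC 1.70), and Gm3776 was listed at 0 in all 3 sham kidneys and at 77.8, 22.1 and 35.5 FPKM at 26 min. How reads divide among these copies is therefore uncertain. Gstp1 was at 261, 266 and 268 FPKM in sham and 803, 619 and 647 at 26 min (log2FC 1.43, SE 0.12, adjusted p = 2.2e-07), and the sham kidneys lay within a few FPKM of each other. The pentose phosphate enzymes Pgd (1.25) and Tkt (1.11) rose with them. Prdx6, a peroxiredoxin, had a log2FC of 0.55 (adjusted p = 0.00098), below the fold threshold. Of 20 heat shock and unfolded protein genes 1 was called, Hspb1 (1.28), near the share of all genes called (3.77%). The Hspb1 call was lost without either of sham kidneys 1 and 2 or without 26 min kidney 3.

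Of 30 proximal tubule markers, 11 fell and 1 rose (median log2FC -0.66, against 0.00 over all genes), and their summed level was 58250 to 62040 FPKM in sham and 18490 to 23040 at 26 min, with Kap the most abundant member. Cyp7b1, an oxysterol hydroxylase of the steroid-responsive straight segment, fell furthest. It was at 126, 153 and 136 FPKM in sham and 3.62, 2.74 and 14.5 at 26 min (log2FC -4.46, SE 0.47, limma adjusted p = 2.9e-06). The organic anion transporter Slc22a7 was at 107, 97.8 and 85.4 FPKM in sham and 11.2, 12.6 and 19.0 at 26 min (log2FC -2.75, SE 0.33, adjusted p = 9.9e-06). Slco1a1 (-2.46), another anion transporter, the brush border metalloprotease gene Mep1b (-2.18), the cystine-glutamate carrier Slc7a13 (-2.16) and the water channel Aqp1 (-1.63) also fell. These falls were uneven: the sodium-phosphate cotransporter Slc34a1 (-0.39), the glucose transporters Slc5a2 (0.35) and Slc5a1 (0.43) and the anion transporters Slc22a6 (0.20) and Slc22a8 (0.13) were not called, and the sulfate transporter Slc13a1 rose, from 151, 265 and 241 FPKM to 423, 463 and 454 (log2FC 1.07, SE 0.34, adjusted p = 0.021). The call of Slc13a1 was lost without sham kidney 1 (0.85) and without 26 min kidney 2 or 3 (1.03 and 1.04). Of 18 markers of the thick ascending limb and distal tubule, 5 fell and 0 rose. Egf, the epidermal growth factor precursor made there, was at 301, 375 and 259 FPKM in sham and 53.3, 86.2 and 33.5 at 26 min (log2FC -2.56, SE 0.60, adjusted p = 0.0032). Pvalb (-1.97), Slc12a1, the loop diuretic target (-1.71), and the prostaglandin receptor gene Ptger3 (-1.44) fell too, whereas Umod (-0.44), Calb1 (-0.03) and Slc12a3 (-0.13) were not called. Without sham kidney 1, 3 of the 18 were called; Slc12a1 also lost its call without 26 min kidney 2 and Pvalb without 26 min kidney 3. Of 15 collecting duct markers 1 was called, the anion exchanger Slc4a1 (-1.03, limma adjusted p = 0.042), which red cells also express. For a list this short, 1 call is near the share of all genes called (3.77%). Slc4a1 lost its call without any of 5 of the 6 kidneys.

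Few metabolic enzymes passed the fold threshold, though only 1.61% of all genes were called lower. All ischemic kidneys lay below sham in 17 of 34 fatty acid oxidation genes and above in 1. For 45 amino acid catabolism genes these counts were 30 and 3. Over all genes the shares were 12.8% below and 29.1% above. The median log2FC of these lists was -0.33 and -0.59, against 0.00 over all genes. Of 34 fatty acid oxidation genes, 4 fell: Ehhadh (-1.60) and Acot1 (-1.41), both peroxisomal or cytosolic enzymes of fatty acyl-CoA handling, the mitochondrial dehydrogenase Acadm (-1.43), and Cyp4a10 (-1.04), which was under the fold threshold without sham kidney 2, sham kidney 3 or 26 min kidney 2. Acadm was at 563, 551 and 541 FPKM in sham and 210, 219 and 258 at 26 min (SE 0.16, limma adjusted p = 4.2e-06). Of 45 amino acid catabolism genes, 4 fell. Hpd, the tyrosine-degrading dioxygenase, was at 69.4, 60.0 and 77.4 FPKM in sham and 6.29, 2.81 and 3.43 at 26 min (log2FC -3.89, SE 0.40, adjusted p = 2.3e-06), and the hydroxyacid oxidase Hao2 (-1.45) and the glycine methyltransferase Gnmt (-1.43) fell less. Without 26 min kidney 2, 7 of the 45 were called lower. Among 23 citric acid cycle and gluconeogenesis genes, Fbp1 fell (-1.04), a call lost without 26 min kidney 3, and Idh2 had a log2FC of -0.68 (adjusted p = 0.0018). None of 22 glycolysis genes was called (median log2FC 0.30). In 12 of the 22 all ischemic kidneys lay above sham and in 0 below, against 29.1% and 12.8% of all genes. Pgam2 had a log2FC of -0.28 (limma adjusted p = 0.49). Of 25 cholesterol synthesis genes 3 rose and 1 fell. The synthesis enzyme genes Fdps (1.35) and Msmo1 (1.10) rose, and Cyp51 fell (-1.17), against the direction of the other enzymes called.

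**Figure D3:**
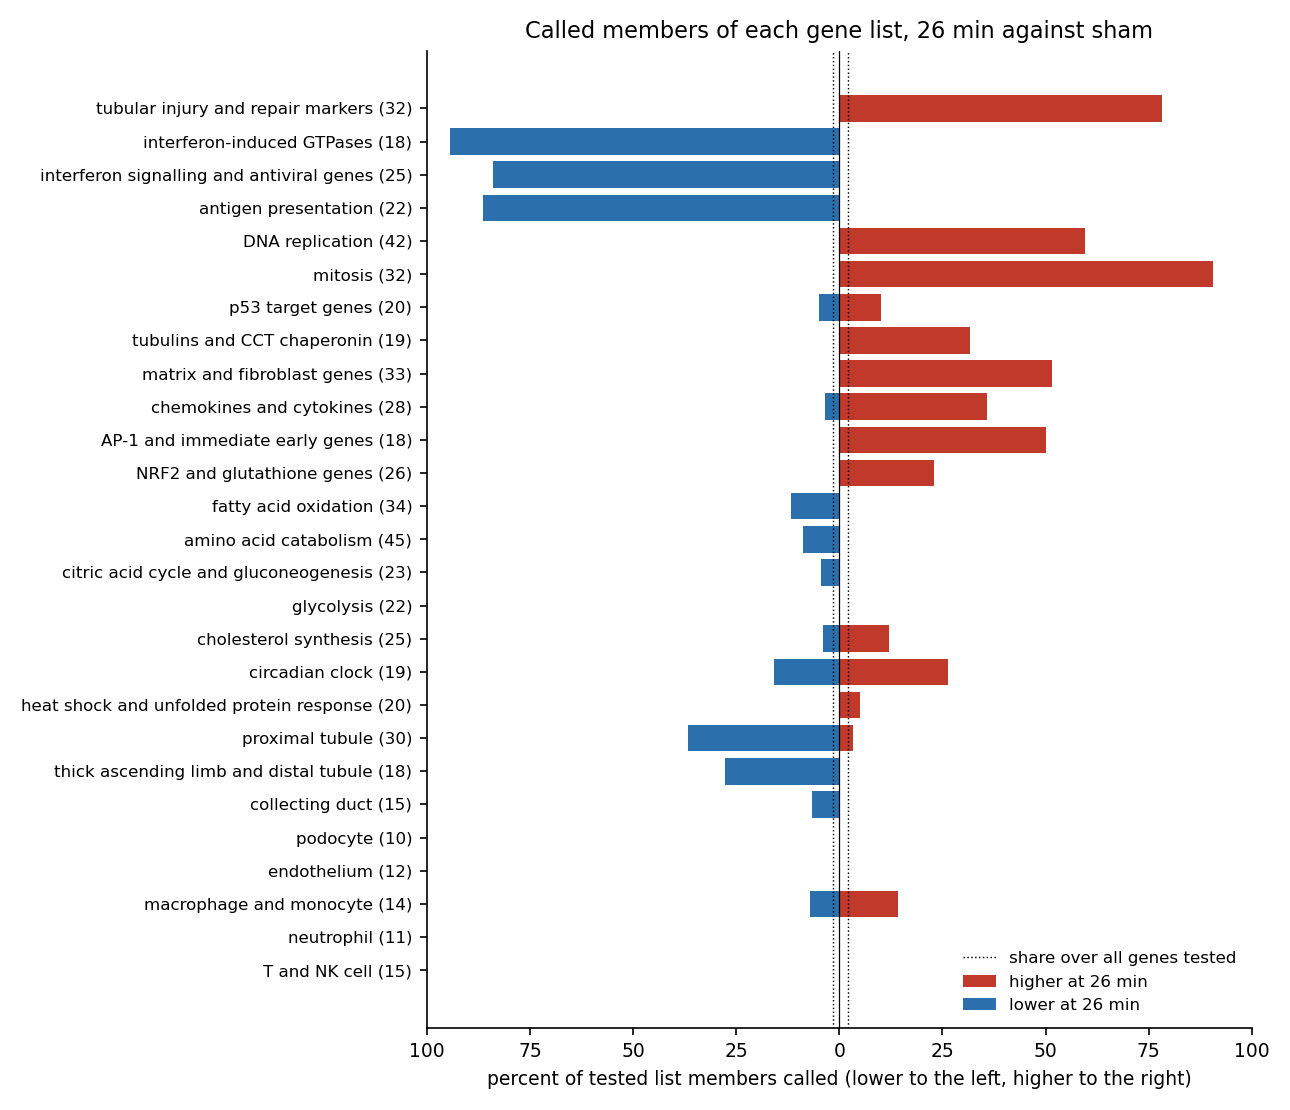
Percent of the tested members of each gene list (number tested in brackets) called higher (red, to the right) or lower (blue, to the left) at 26 min against sham; dotted lines mark the share over all genes tested, 2.16% higher and 1.61% lower. Injury, replication and mitosis lists extend to the right (25 of 32, 25 of 42 and 29 of 32), and interferon and antigen presentation lists to the left (17 of 18, 21 of 25 and 19 of 22); leaving out sham kidneys 2 and 3 reduces the 3 lists on the left to 6, 3 and 9.

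Interferon-induced genes gave the largest falls, and their size depended on which sham kidneys were read. Promoters of 3 of these GTPase genes are shown because each carries a GAS match (TTCNNNGAA) followed after a gap of 2 bases by an ISRE match (GAAA, any 2 bases, GAAA), both in capitals. Each is the 250 bases before the start in RefSeq on GRCm38.p6, read 5′ to 3′ on the gene's strand. Tgtp1 lies at chr11:48992247-48992496 on the minus strand, and Igtp and Irgm2 are close to each other at chr11:58199306-58199555 and chr11:58214727-58214976 on the plus strand.
Tgtp1: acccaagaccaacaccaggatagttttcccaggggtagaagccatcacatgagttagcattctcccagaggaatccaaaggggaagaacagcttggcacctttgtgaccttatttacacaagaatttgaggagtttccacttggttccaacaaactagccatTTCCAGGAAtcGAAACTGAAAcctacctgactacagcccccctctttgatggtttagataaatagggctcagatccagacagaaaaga
Igtp: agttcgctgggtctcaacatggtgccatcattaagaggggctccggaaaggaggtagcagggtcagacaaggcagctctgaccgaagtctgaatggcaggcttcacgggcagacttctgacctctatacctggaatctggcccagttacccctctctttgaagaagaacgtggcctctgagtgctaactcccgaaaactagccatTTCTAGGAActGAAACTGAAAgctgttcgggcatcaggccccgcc
Irgm2: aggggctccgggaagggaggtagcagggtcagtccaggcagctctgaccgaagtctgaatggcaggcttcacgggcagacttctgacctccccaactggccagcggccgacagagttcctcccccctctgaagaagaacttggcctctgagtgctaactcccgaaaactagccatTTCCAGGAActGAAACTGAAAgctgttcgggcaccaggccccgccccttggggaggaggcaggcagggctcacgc

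With both strands searched, 10 of the 11 interferon-induced GTPase genes with an entry held an ISRE match (90.9%) and 6 a GAS match (54.5%). Over all 14320 tested genes with an entry the shares were 3.27% and 7.4%. Among 20 genes of interferon signalling and antiviral defence 9 held the ISRE (45%) and 5 the GAS letters (25%), and among 18 antigen presentation genes 2 held each (11.1%). These are letters in a window and say nothing of which factor was bound in these kidneys.

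Of 18 interferon-induced GTPases, which attack the vacuoles of intracellular pathogens, 17 were called lower and 0 higher (median log2FC -2.70). Gbp6 was at 17.7, 466 and 291 FPKM in sham kidneys 1 to 3 and at 1.56, 1.97 and 0.91 at 26 min (log2FC -5.94, SE 0.68, limma adjusted p = 6.9e-06). Tgtp1 was at 9.3, 613 and 535 FPKM in sham and 2.51, 4.02 and 2.27 at 26 min (log2FC -5.45, SE 0.93, adjusted p = 0.00023), and Tgtp2 (-4.38), its near-identical neighbour, had the same order. Igtp was at 17.4, 503 and 363 FPKM in sham and 7.99, 8.42 and 8.34 at 26 min (log2FC -4.18, SE 0.72, adjusted p = 0.00026). In each of these genes sham kidney 1 lay far nearer the ischemic kidneys than to sham kidneys 2 and 3, yet still above them. In 14 of the 18 genes all sham kidneys were above all ischemic kidneys, against 12.8% of all genes. With sham kidney 1 as the only sham kidney, assumed to vary like the other groups, 6 of the 18 were called lower (median -0.53): Gbp6 (-3.05), Gbp10 (-2.18), Tgtp1 (-1.54), Tgtp2 (-1.13), Igtp (-1.11) and Iigp1 (-1.02). Fitted on the 6 kidneys alone, where the spread among sham kidneys is not averaged with the other groups, 4 were called.

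Of 25 genes of interferon signalling and antiviral defence, 21 were called lower and 0 higher (median log2FC -1.60). Irf7, the amplifier of type I interferon, was at 18.7, 143 and 152 FPKM in sham and 9.5, 9.7 and 6.44 at 26 min (log2FC -3.06, SE 0.48, limma adjusted p = 0.00012), and at -1.19 against sham kidney 1 alone. Ifit1, an antiviral RNA-binding protein, was at 1.92, 27.03 and 33.1 FPKM in sham and 2.42, 2.55 and 1.98 at 26 min (log2FC -2.19, SE 0.54, adjusted p = 0.0044); against sham kidney 1 alone it changed sign, to 0.05. The immune checkpoint ligand gene Cd274 (-2.41) and the death ligand gene Tnfsf10 (-1.94) were lower too. In 10 of the 25 genes all sham kidneys were above all ischemic kidneys, against 12.8% of all genes. Without sham kidney 2, 14 were called, and on the 6 kidneys alone 4 were. Against sham kidney 1 alone the median was -0.12. The fall of this list therefore rested on sham kidneys 2 and 3.

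Antigen presentation genes fell in a way that depended less on those kidneys. Of 22 tested, 19 fell and 0 rose (median log2FC -1.94). All 7 MHC class II genes fell with no overlap between the groups (median -2.76). Of 15 class I and peptide supply genes 12 fell (median -1.66). In 10 of the 15 all sham kidneys were above all ischemic kidneys, against 12.8% of all genes. Cd74, the invariant chain that escorts class II molecules, was at 674, 622 and 624 FPKM in sham and 45.9, 58.7 and 37.9 at 26 min (log2FC -3.88, SE 0.35, limma adjusted p = 4.6e-07). It was thus as high in sham kidney 1 as in the others, and against that kidney alone the log2FC was -3.93. The class II chain gene H2-Ab1 was at 249, 391.9 and 399.7 FPKM in sham and 33.6, 31.9 and 26.0 at 26 min (log2FC -3.55, SE 0.34, adjusted p = 1.1e-06; -3.01 against sham kidney 1 alone), and H2-Aa had -3.45 and -3.01. B2m, the light chain of class I molecules, was at 1332, 2090 and 2127 FPKM in sham and 322, 344 and 273 at 26 min (log2FC -2.65, SE 0.18, adjusted p = 2.4e-08; -2.16 against sham kidney 1 alone). The immunoproteasome subunit Psmb9 followed the GTPases instead, at 4.75, 78.9 and 46.0 FPKM in sham and 2.56, 3.48 and 2.63 at 26 min (log2FC -2.94, SE 0.55, adjusted p = 0.00051; -0.70 against sham kidney 1 alone), and so did Ciita, the class II transactivator (-2.19, and -0.31 alone). Against sham kidney 1 alone 9 of the 22 were called, 4 of them class II genes (median of the 7, -1.95) and 5 class I genes (median of the 15, -0.70). Ifng was at or under 0.11 FPKM in all 6 kidneys, and the T and NK cell markers given above were near 0 in both groups, highest in sham kidney 1. The part of immune cell numbers in these falls was not tested.

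**Figure D4:**
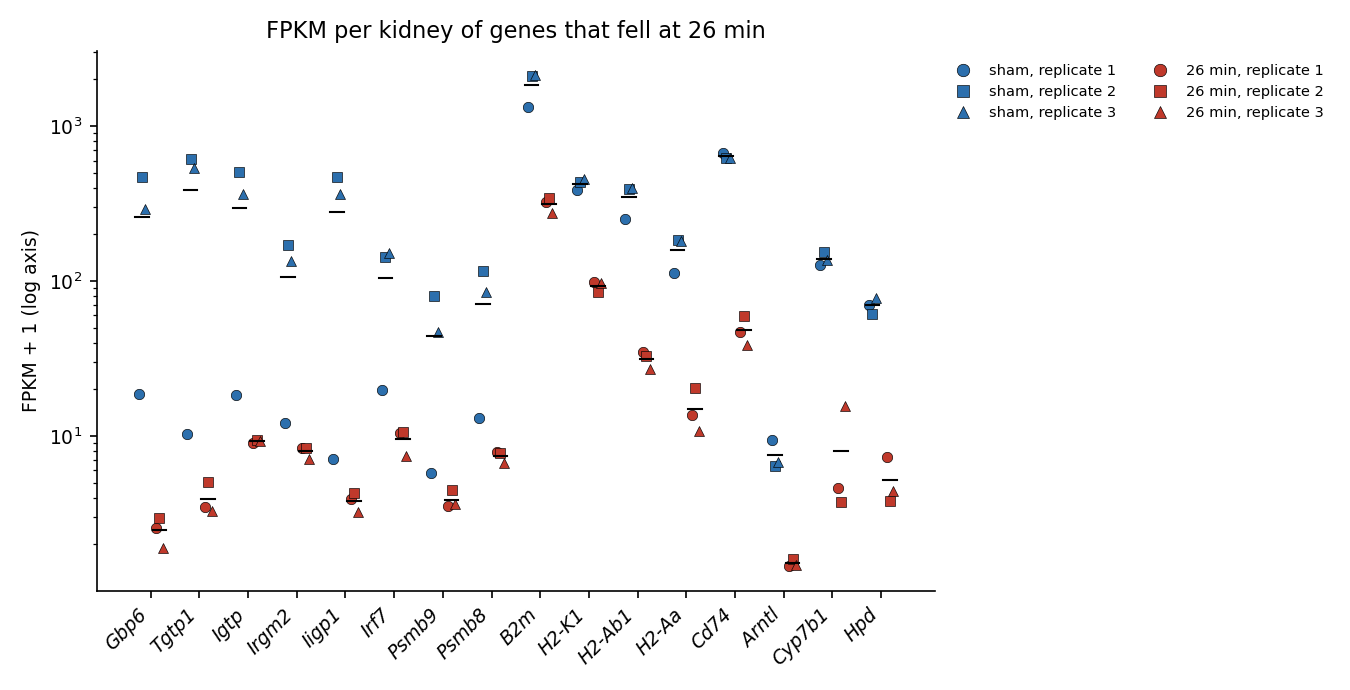
FPKM + 1 on a log axis for 16 genes that fell, 1 symbol per kidney (circle, square and triangle for replicates 1 to 3, sham in blue and 26 min in red), with a black bar at each group mean. Sham kidney 1 (blue circle) lies nearer the ischemic kidneys than the other sham kidneys from Gbp6 to Psmb8 and with the other sham kidneys for Cd74 (674 against 622 and 624 FPKM), Cyp7b1 and Hpd.

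Clock genes differed in both directions. Of 19 tested, 5 rose and 3 fell. Arntl encodes BMAL1, the activator of the circadian loop, and was at 8.38, 5.41 and 5.78 FPKM in sham and 0.45, 0.60 and 0.47 at 26 min (log2FC -2.40, SE 0.21, limma adjusted p = 3.1e-07). The repressor gene Per2 was higher, at 2.03, 3.32 and 4.99 FPKM in sham and 10.9, 12.7 and 10.7 at 26 min (log2FC 1.39, SE 0.19, adjusted p = 3.5e-05). Ciart (1.79) and the output gene Dbp (1.59) were higher as well. Nr1d1, which represses Arntl, was lower (-1.07, adjusted p = 0.001), and Per3 (0.84), Cry1 (0.78) and Cry2 (0.13) were not called. The hour at which either group was harvested is not given in the sources used here and its part in these differences was not tested. Without sham kidney 1, 1 clock gene was called lower.

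Among the largest changes were genes of less familiar roles in the kidney. Serpina10, a secreted protease inhibitor of the coagulation system, was at 1.17, 3.16 and 4.68 FPKM in sham and 38.5, 34.6 and 50.4 at 26 min (log2FC 3.36). Smpdl3b, a lipid-modifying phosphodiesterase of the plasma membrane, was at 0.37, 0.49 and 0.74 FPKM in sham and 13.0, 10.4 and 13.5 at 26 min (log2FC 2.99). Sprr2f (2.93), a cornified-envelope gene counted among the injury markers above, was at or under 1.55 FPKM in sham. Nccrp1 was at 181, 67.5 and 82.9 FPKM in sham and 10.4, 2.82 and 8.99 at 26 min (log2FC -3.79). These 4 genes were picked from the largest changes with non-overlapping groups, so their lack of overlap was set by that choice.

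Whether 26 min differed from the shorter clamp next to it was tested by the direct contrast with the 24 min kidneys. No gene was a DEG (0 of 18188, 0%) by limma, and 1100 genes had an unadjusted p under 0.05 (6.05%). The genes with the smallest p were Ovol2 (log2FC -0.58), Pam (0.32), Fbxo27 (-0.24), Gm52730 (0.28) and Tm2d3 (-0.21). Havcr1 was at 567, 235 and 388 FPKM at 24 min, overlapping the 466 to 711 of 26 min (log2FC 0.63, adjusted p = 0.94). With 3 kidneys a group this does not show that the times are alike.

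The contrast with the next longer clamp gave more. At 28 min against 26 min 272 genes were DEGs (1.5%), 80 higher (0.44%) and 192 lower (1.06%), and 5635 genes (31%) had an unadjusted p under 0.05. Of the injury markers 10 of 32 were higher at 28 min (median log2FC 0.99), of the proximal tubule markers 12 of 30 were lower (median -0.89) and of the thick ascending limb and distal tubule markers 7 of 18 were lower (median -0.95). The 3 interferon and antigen presentation lists had no call in either direction (medians -0.22, -0.14 and 0.04). Havcr1 was at 1331, 1129 and 1359 FPKM at 28 min, above all 26 min kidneys, with a log2FC of 1.28 that did not pass the test (SE 0.74, adjusted p = 0.26). Krt20 went from 11.4 to 19.1 FPKM at 26 min to 65.7 to 107 at 28 min (log2FC 2.30, SE 0.55, adjusted p = 0.0059). Mep1b went from 20.8, 22.0 and 26.8 FPKM to 1.5, 1.68 and 1.78 (log2FC -3.15, SE 0.43, adjusted p = 7.4e-05), and Egf from 33.5 to 86.2 FPKM to 4.37 to 5.27 (log2FC -3.23, SE 0.60, adjusted p = 0.001). Of 32 mitosis genes 3 were lower at 28 min (median -0.60), and of 42 replication genes 0 were called (median 0.28). Ccnb2, a mitotic cyclin gene, was at 5.81, 13.1 and 5.06 FPKM at 26 min and 1.81, 1.36 and 2.21 at 28 min (log2FC -1.54, SE 0.40, limma adjusted p = 0.01). By comparison, Mcm5 was at 16.8 to 21.4 and 24.2 to 31.3 FPKM at these times. The 26 min kidneys are shared by this contrast and the one against sham. The count of genes higher at 28 min was 43 without 26 min kidney 2 and 121 without 26 min kidney 3, against 80 with both.

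**Figure D5:**
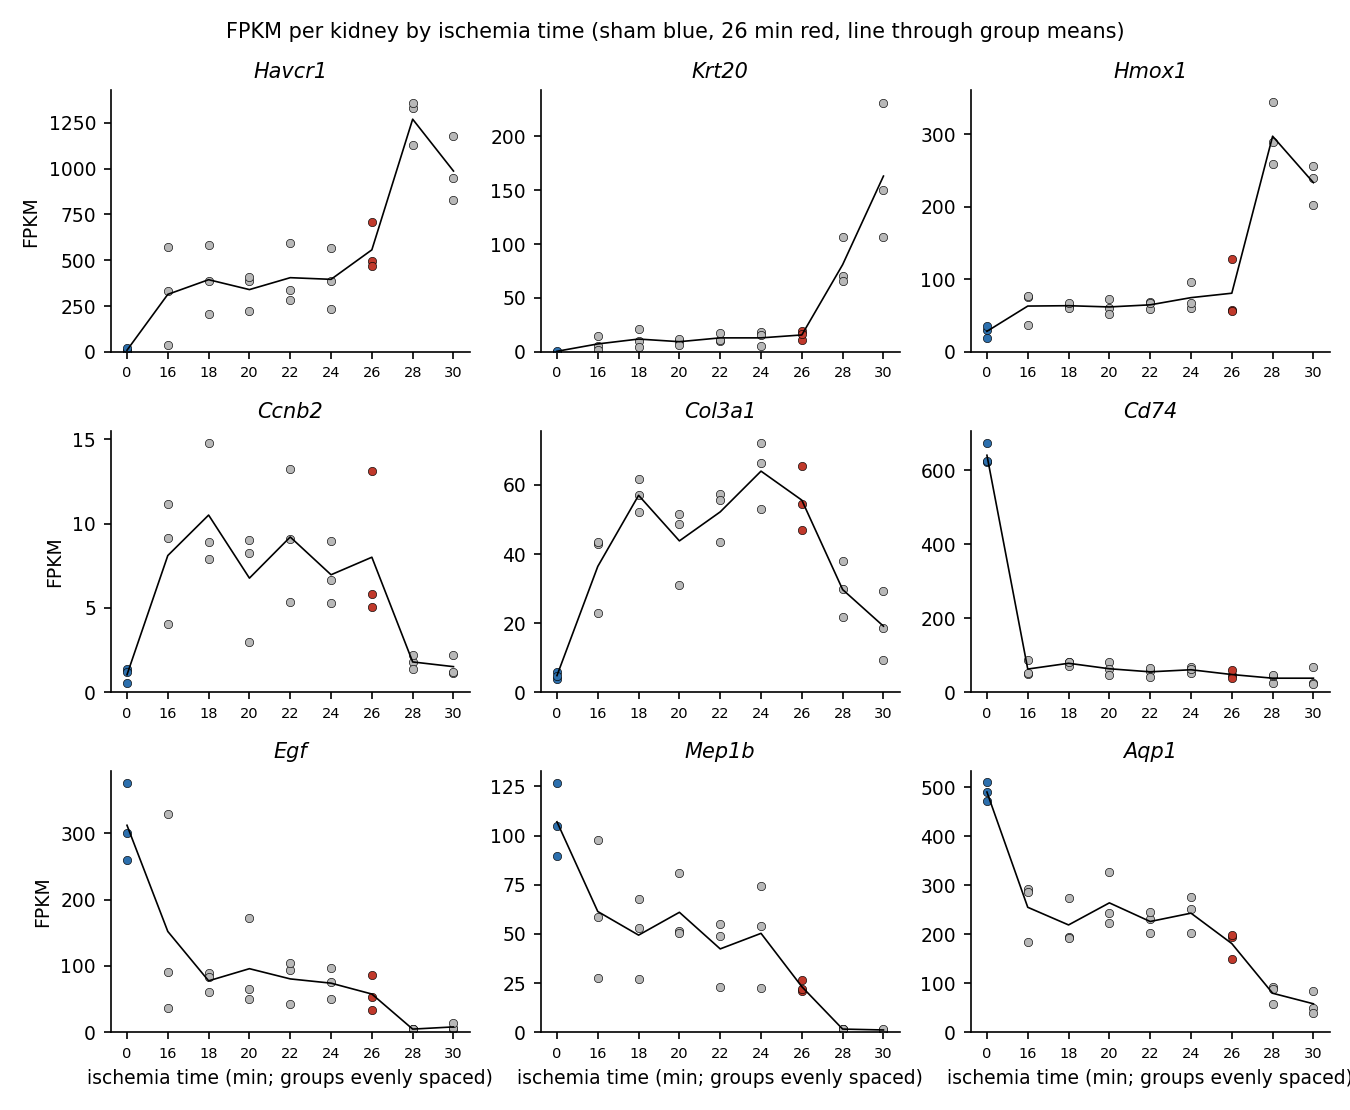
FPKM per kidney (y axis, linear) at each ischemia time in min (x axis, groups evenly spaced, 0 for sham), sham in blue, 26 min in red, other times in grey, with a line through group means. The 26 min kidneys overlap those at 24 min in the 9 genes shown except Aqp1, where the highest 26 min value (198 FPKM) is just under the lowest at 24 min (202 FPKM); Mep1b and Egf are at under 6 FPKM in all 28 min kidneys and Cd74 is already low at every ischemia time.

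Among genes that the study names, those not yet mentioned or not called at 26 min against sham were as follows. Cxcl5 (log2FC 0.69, limma adjusted p = 0.032), Mapk11 (0.69, adjusted p = 0.0012) and Mapk12 (0.31, adjusted p = 0.12) did not pass the fold threshold. Jun, the AP-1 subunit, was at 6.79, 7.31 and 10.9 FPKM in sham and 20.5, 24.97 and 33.4 at 26 min and rose (log2FC 1.43, SE 0.21, adjusted p = 5.9e-05), with no overlap. With a pseudocount of 0.1 in place of 1 FPKM, Cxcl5 (2.02), Mapk11 (1.03) and Pole2 (1.21) were called.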

How the data were processed

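RNA from 27 left kidneys, 3 for each of 9 ischemia times, had been sequenced on a DNBSEQ platform. As deposited by the authors, values were FPKM per gene for 19392 genes on GRCm38.p6; the submitters' processing notes name Bowtie2, RSEM and DESeq2 without versions, and how reads shared by near-identical genes were divided is not described. FPKM carry no read totals, so depth and counting error are unknown.

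Kidneys were grouped by their labels. FPKM were converted to log2(FPKM + 1), genes above 0 in at least 3 of the 27 kidneys were kept (18188), values were quantile normalised, and 1 mean per group was fitted in limma 3.58.1 (R 4.3.3) with empirical Bayes moderation and Benjamini-Hochberg adjustment over all genes. Fold changes on this scale understate those of genes near 1 FPKM. DEGs had an absolute log2FC above 1 and adjusted p under 0.05. The code was tested on simulated data. Members and gene lists were chosen with earlier results of these data known. Named genes were the 15 largest rises and falls with non-overlapping groups, the 4 largest calls of each list, genes the study names, the 5 largest changes in mean FPKM in each direction, the 5 largest for each combination of calls at 26 min against sham and 28 min against 26 min, and the 5 smallest p at 26 min against 24 min; a few genes under these rules are not reported here, and other list members named were chosen after their values were seen. For single values the two-sided exact permutation test over kidneys was used. Promoter sequence came from RefSeq (GRCm38.p6), matched by symbol for 14320 of the 18188 genes; Gbp6, Gbp10, Cyp7b1, H2-Ab1 and Gins2 had no entry. Figures were drawn with matplotlib 3.10.9. Alternatives covered the pseudocount, filter, scaling, samples in the fit, variance trend, replicate block and leaving out kidneys; the fit without sham kidneys 2 and 3 was added after seeing the data.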

Additional observations from a re-analysis of the deposited data

Results flagged for a closer look

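Of the genes called at 26 min against sham, 34 were called higher in both that contrast and the direct limma contrast of 28 min against 26 min. A further 9 were higher and then lower, 61 were lower in both, and 0 were lower and then higher. From these, 14 genes among the largest changes at 28 min against 26 min of each combination were singled out. Both contrasts use the same 26 min kidneys, and the genes were chosen by these calls, so the values are a description. Fosl1, an AP-1 subunit, was at 0.77 to 1.84 FPKM at 26 min and 10.8 to 13.3 at 28 min (log2FC 2.58, adjusted p = 0.00012); its call against sham (1.01) was lost in most alternatives. Krt20 (2.30, adjusted p = 0.0059), Hmox1 (1.96, adjusted p = 0.00015) and Gm3776 (1.82, adjusted p = 0.039), which was listed at 0 in every sham kidney and shares reads with Gsta1 and Gsta2, were higher still at 28 min.

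The zinc transporter Slc39a5 was at 21.5, 17.4 and 18.8 FPKM in sham, 48.7, 64.5 and 29.7 at 26 min and 13.1, 17.6 and 13.1 at 28 min (log2FC from 26 to 28 min -1.61, adjusted p = 3.9e-05). Its 28 min level was thus at or under the sham level. The carboxylesterase Ces1g (-1.58, adjusted p = 0.02) and the mitotic genes Ccnb2 (-1.54, adjusted p = 0.01), Cdca3 (-1.47, adjusted p = 0.013) and Cdkn3 (-1.25, adjusted p = 0.011) were also higher at 26 min than in sham and lower at 28 than at 26 min. In these 5 genes 26 min kidney 2 was the highest of its group, and the call of Slc39a5 at 26 min against sham was lost without it (0.84).

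Egf (-3.23, adjusted p = 0.001), Mep1b (-3.15, adjusted p = 7.4e-05), Slc7a13 (-2.66, adjusted p = 0.00012), the acyl-CoA synthetase Acsm3 (-2.56, adjusted p = 7.9e-05) and Mettl7a2 (-2.50, adjusted p = 8.5e-05) were lower at 26 min than in sham and lower again at 28 min. Acsm3 was at 214 to 290 FPKM in sham, 70.3, 94.5 and 174 at 26 min and 13.0 to 21.1 at 28 min, with a log2FC against sham of -1.15 that was under the threshold or lost its call without sham kidney 1, 26 min kidney 1 or 26 min kidney 2. Groups of 3 are too small for a test of single kidneys that stand apart.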

How the results depend on the processing

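Precision was limited by 3 kidneys a group and by FPKM without read totals. A smaller pseudocount raised the calls at 26 min against sham from 686 to 1318 (738 higher, 580 lower) at 0.1 FPKM and to 1530 (884 and 646) at 0.01 FPKM, and at 28 min against 26 min from 272 to 515 (186 and 329) and 606 (210 and 396). With TPM 674 genes were higher at 26 min against sham. The 6 kidneys alone gave 619 calls, a minimum of 1 FPKM 665, no filter 683 and a variance trend 688. Leaving out each kidney gave 622 to 740 calls at 26 min against sham (372 to 439 higher, 250 to 301 lower), 0 or 1 at 26 min against 24 min, and 198 to 365 at 28 min against 26 min (43 to 121 higher, 155 to 244 lower). The 1 call against 24 min came without 26 min kidney 3, and the 43 and 121 without 26 min kidneys 2 and 3; the cause was not tested. Of the 393 higher and 293 lower genes, 310 and 200 were called without each of the 6 kidneys in turn, and 0 were called in the opposite direction under any alternative.

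With a replicate block 687 genes were called (393 higher, 294 lower). Same-numbered sham and 26 min kidneys deviated together at r = 0.088, 0.089 and 0.168, against -0.123 to 0.025 for other pairs. Each correlated best with its own number, a hint from the data only. The hint did not recur between neighbouring times. Same-numbered 24 and 26 min kidneys had r = -0.389, 0.061 and 0.008, and same-numbered 26 and 28 min kidneys -0.041, 0.016 and 0.104. The numbers were not taken as a pairing.

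Sham kidney 1 alone, with 603 calls (361 higher, 242 lower), left 6 of 18 GTPases, 3 of 25 interferon signalling genes and 9 of 22 antigen presentation genes called lower, and 19 of 32 mitosis and 5 of 18 immediate early genes called higher. Ifit1 then had a log2FC of 0.05 (limma adjusted p = 0.95). In the 6 kidneys alone 4 GTPases and 4 signalling genes were called, and 14 antigen presentation genes. Of 125 named genes, 86 had the same call under every alternative. Among 1997 values compared, 1881 kept their status as called or not called. A gene called in neither fit counted among these even where its log2FC changed sign.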
